A study of Mus musculus with 13 samples.

Results

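The insulin-like growth factor (IGF) axis was measured as 10 genes out of the 55642 in the count table: the ligands Igf1 and Igf2, the receptors Igf1r and Igf2r, and the binding proteins Igfbp2, Igfbp3, Igfbp4, Igfbp5, Igfbp6 and Igfbp7. They were taken by matching the Ensembl identifiers of the table to these symbols, without regard to their values, and all 10 passed the filter on low counts that left 16848 genes to test. The cells were C2C12, a mouse myoblast line, so the libraries come from 1 line and not from separate animals. The labels do not say whether each library is a separate transfection. Cells received nontargeting siRNAs (the groups named control KD) or siRNAs that target the RNA-binding protein YBX3 (the groups named YBX3 KD), and RNA was harvested 48 h after transfection. Cells at 0 day, which the study names proliferating myoblasts, were kept in medium with 10% fetal bovine serum. Those at 1 day, which it names differentiating myoblasts, had been moved 24 h after transfection to medium with 10% horse serum. Each siRNA had 4 libraries at 0 day, replicates A, B, C and D. At 1 day control KD had 2, from replicates C and D, and YBX3 KD had 3, from replicates B, C and D. No sample without siRNA was analysed here.

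IGF-I and IGF-II are secreted peptides that act through the receptor tyrosine kinase IGF1R and its insulin receptor substrates to drive the PI3K-AKT and MAPK pathways, and in muscle precursors they promote both proliferation and differentiation. IGF2R, the cation-independent mannose 6-phosphate receptor, does not signal as a kinase. It takes up IGF-II for degradation in lysosomes and also sorts newly made lysosomal hydrolases. The secreted binding proteins hold IGFs outside the cell, where they can block or prolong their action, and proteases such as PAPPA release the ligand by cleaving some of them.

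The libraries held between 33451547 and 71811371 estimated counts, and values are given as CPM, counts scaled to a common library size, after TMM scaling, with factors of 0.969 to 1.021. Ybx3, the targeted gene (ENSMUSG00000030189, chr6:131341810-131365448 on the minus strand of GRCm39), lay between 264.4 and 346.4 CPM in the 6 control KD libraries and between 28.68 and 71.48 CPM in the 7 YBX3 KD libraries. Its log2 fold change was -2.81 ± 0.17 (SE; Benjamini-Hochberg adjusted p = 5.26e-06 in the quasi-likelihood test of edgeR), which left 14.26% of the control level. All 7 YBX3 KD libraries lay below all 6 control KD libraries, as they did for 1.08% of the genes tested. The myoblast markers Cdh15 (99.56 to 163.2 CPM), Itga7 (329.1 to 581.6 CPM) and Myf5 (31.32 to 73.51 CPM) were present in every library, Myod1 reached 3.32 CPM and Pax7 at most 0.179 CPM. Of the 19 markers of other cell types, Adipoq, Plin1, Ibsp, Kdr and Ptprc had at most 2 counts in any library, and Lep and Adgre1 had none. Others of the same lists were present: Runx2 (osteoblast) stood at 83.32 to 134.8 CPM and Pparg (adipocyte) at 11.99 to 30.08 CPM, while Cebpa (adipocyte) had 60 to 169 counts, Cd68 (macrophage) 58 to 153 and Cdh5 (endothelial) 34 to 78. Levels were also summed over the genes of each list that passed the filter on low counts, which leaves out the scarcest markers. Over the 4 groups the sum ran from 14.21 to 33.23 CPM for adipocyte (2 of 6 genes) and 84.15 to 135 CPM for osteoblast (3 of 5). It ran from 0.776 to 1.69 CPM for endothelial (2 of 4) and 1.82 to 3.92 CPM for macrophage genes (2 of 4).

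The study lists 4 siRNAs to mouse YBX3, and the sources used here do not say which of them went into these libraries. Their antisense strands are shown 5′ to 3′ because an siRNA can also act on other transcripts through its seed, bases 2 to 8, which is in capitals.
siRNA 5: uAUAGUUGuagggacgucg
siRNA 6: aUAGUAGCcgcgucuguac
siRNA 7: uCCAUAUCcauuucugacg
siRNA 8: aUACUUGCguggguuguuu
The antisense strand listed for siRNA 7 is not the complement of the sense strand listed with it. The 7 bases complementary to each seed were searched on the transcript strand of the annotated 3′ untranslated regions of 12936 tested genes. CAACTAT, for siRNA 5, was found in 6.72% of them. GCTACTA, for siRNA 6, was found in 4.9%, GATATGG, for siRNA 7, in 5.97%, and GCAAGTA, for siRNA 8, in 6.83%. At least 1 of the 4 occurred in 20.4% of these regions and in 1 of the 10 members, Igf1, where the match to siRNA 5 lies in this 30-base window on the plus strand of GRCm39 (chr10:87770346-87770375), with the match in capitals.
Igf1: ccaccacctttCAACTATgtgtcactcaca
For the 4 nontargeting siRNAs listed for the control groups, the same search found the site of siRNA 1 in 0.649% of the regions and in no member. It found those of siRNAs 2, 3 and 4 in 24.9%, 29.5% and 31.8% of the regions and in 4, 4 and 5 members, which did not include Igf2r. None of the 4 YBX3 siRNA sites was found in the 1304 bases of the Igf2r region. A match is a description of the sequence and no evidence of binding.

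Igf2r was the only 1 of the 10 members that differed between YBX3 KD and control KD past an adjusted p of 0.05. Its mRNA fell in YBX3 KD by 0.64 on the log2 scale, to 64.35% of the control level. None of the ligands, Igf1r or the 6 binding proteins passed that threshold. Over both days this was 1 of 10 members, beside 2.34% of all genes tested (394 of 16848). Under the stricter rule that the study used, a fold change above 1.3 with an adjusted p under 0.001, no member was called over both days, beside 0.113% of all genes (19). By an unadjusted p under 0.05, 2 of the 10 members (Igf2r and Igfbp7) passed, beside 15.6% of all genes. Of the 10, 5 had a higher and 5 a lower mean in YBX3 KD, with a median log2 fold change of -0.057 against 0.001 over all genes. P-values here measure the spread between these libraries, and whether a library with fewer counts of a gene had less of that RNA in each cell or fewer cells expressing it cannot be told apart in bulk RNA.

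**Figure D1:**
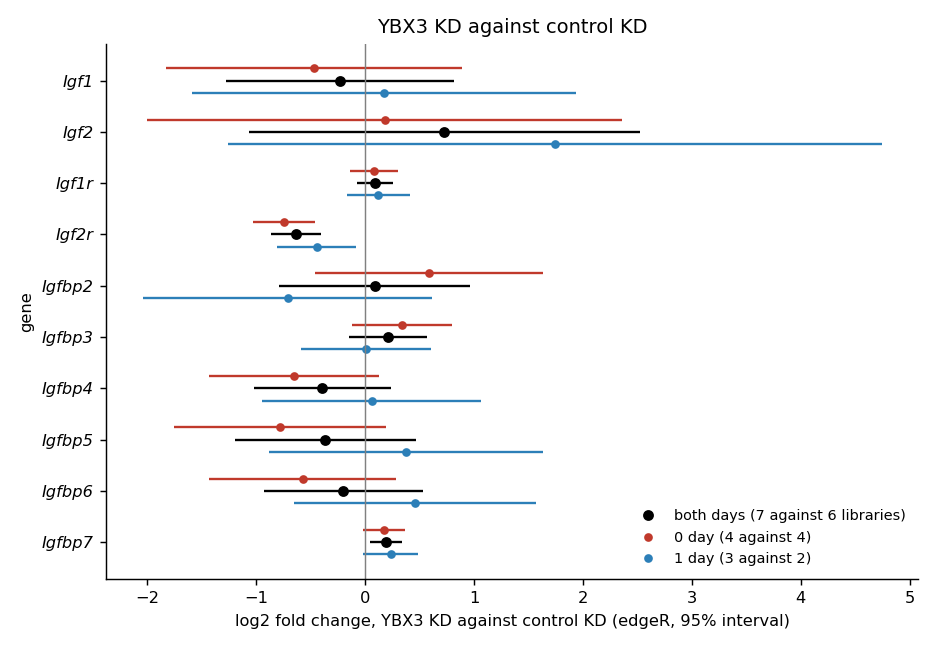
Log2 fold change of each member in YBX3 KD against control KD, with 95% intervals from edgeR's quasi-likelihood fit, over both days (black), at 0 day (red) and at 1 day (blue). Igf2r alone lies wholly below 0 in each of the 3 comparisons, and over both days the interval of Igf2 is the widest.

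The receptor genes are given first. Igf2r (ENSMUSG00000023830) lies at chr17:12901293-12988614 on the minus strand. At 0 day the control KD libraries A to D held 145.2, 143.7, 134.7 and 161 CPM, and the YBX3 KD libraries A to D held 106.9, 81.1, 80.8 and 79.18 CPM. At 1 day control KD C and D held 128.3 and 116.7 CPM, and YBX3 KD B, C and D held 71.92, 105.6 and 92.45 CPM. Every YBX3 KD library lay below every control KD library, as they did for 1.08% of the genes tested. The closest approach was YBX3 KD 0 day A to control KD 1 day D. The difference ran the same way in all 6 pairs of libraries that share a replicate letter and a day, as it did for 7.97% of all genes. The pairwise log2 differences were -0.44, -0.83, -0.74 and -1.02 for A to D at 0 day, and -0.28 and -0.34 for C and D at 1 day.

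Over both days the mean level of Igf2r was 138.3 ± 15.29 CPM in control KD (SD, n = 6) and 88.27 ± 13.67 CPM in YBX3 KD (SD, n = 7), and the log2 fold change was -0.64 ± 0.11 (SE; 95% interval -0.87 to -0.40; adjusted p = 0.0104, edgeR's quasi-likelihood test). At 0 day it was -0.75 ± 0.13 (adjusted p = 0.0358, edgeR), and Igf2r was the 1 member past 0.05 beside 0.427% of all genes, while the stricter rule called no member beside 0.0297% of all genes. At 1 day, with 3 against 2 libraries, it was -0.45 ± 0.17 (unadjusted p = 0.0207, adjusted p = 0.585, edgeR), and no member passed 0.05 beside 0.0712% of all genes. The difference between the effects at 1 day and 0 day was 0.30 (95% interval -0.16 to 0.77, adjusted p = 1, edgeR), so a smaller effect at 1 day is not shown. No member and 0% of all genes passed 0.05 in that test of the difference, and at an unadjusted p under 0.05 it was 0 of 10 members and 444 genes. DESeq2 passed 2 genes and limma-voom 1 gene in that test, neither with a member.

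That Igf2r passed 0.05 over both days did not rest on 1 library. Its adjusted p stayed under 0.05 in each of the 24 settings computed, between 1.04e-06 and 0.0317, and the log2 fold change stayed between -0.69 and -0.56. At 0 day, in contrast, it passed 0.05 in 14 of 24 settings and in 4 of the 13 fits that left out a single library, where the adjusted p reached 0.151. Among fits that left out a 0 day library, only that without YBX3 KD 0 day A passed (adjusted p = 0.0257, edgeR). The others that passed left out a YBX3 KD 1 day library, which is not among the libraries compared at 0 day. With DESeq2 in place of edgeR, the stricter rule called 188 genes over both days and 106 at 0 day, against 19 and 5 with edgeR. Igf2r was among those that DESeq2 called, with an adjusted p of 2.65e-06 over both days and 1.89e-05 at 0 day. With the replicate letter as a block it was 1 of 10 members past 0.05 over both days, beside 9.78% of all genes (log2 fold change -0.63, adjusted p = 0.00828, edgeR). Without the 4 replicate D libraries it was again 1 of 10, beside 12.9% of all genes (-0.62, adjusted p = 0.00921, edgeR).

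Airn, a noncoding RNA transcribed antisense across Igf2r, was listed at 0.635 to 1.29 CPM, with 25 to 61 counts in a library. Its log2 fold change was 0.19 ± 0.20 (adjusted p = 0.707, edgeR). The study's methods name both a stranded mRNA kit and a TruSeq RNA kit, and call the libraries stranded. Whether the counting used strand is not given in the sources used here. The part of Airn reads in the counts of Igf2r was not tested.

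Igf1r (ENSMUSG00000005533, chr7:67601518-67883416, plus strand), the signalling receptor, varied least among the 10 members from library to library. It held 63.98, 59.5, 55.74 and 67.79 CPM in control KD A to D at 0 day and 68.33, 59.14, 63.37 and 69.9 CPM in YBX3 KD A to D. At 1 day it held 55.84 and 66.06 CPM in control KD C and D and 57.27, 71.8 and 69.89 CPM in YBX3 KD B to D. The groups overlapped throughout. The log2 fold change was 0.09 ± 0.08 (95% interval -0.07 to 0.26, adjusted p = 0.601, edgeR), so an effect of the size seen for Igf2r lies outside this interval. The coefficient of variation over all 13 libraries was 8.96% for Igf1r, 10.9% for Igfbp7, the next lowest, and 26.4% for Igf2r.

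**Figure D2:**
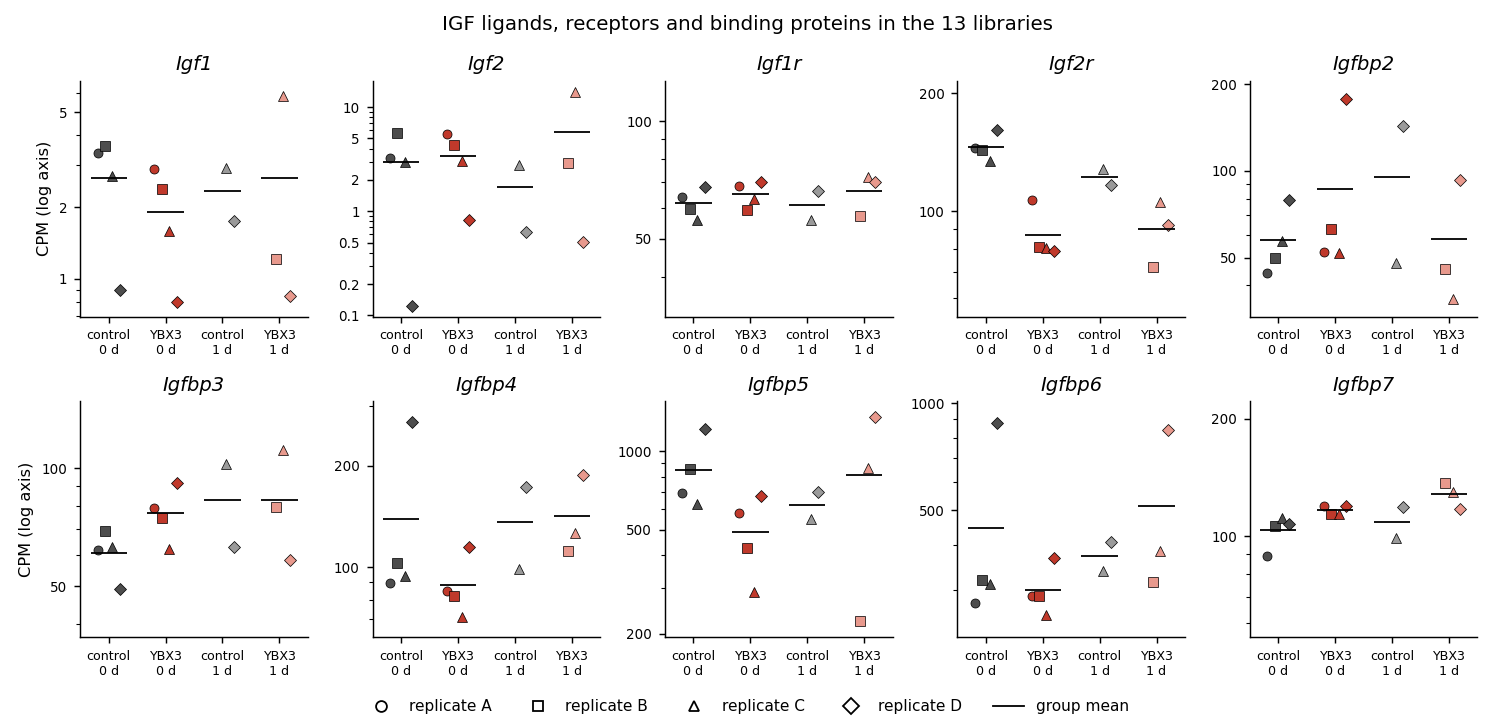
CPM of each member in each library (log axes, a separate range for each gene), by group, with a marker shape for each replicate letter and a line at the group mean. The 7 YBX3 KD points of Igf2r lie below the 6 control KD points, as for 1.08% of all genes. Replicate D (diamonds) is lowest in every group for Igf1 and Igf2 and highest in every group for Igfbp2, Igfbp4, Igfbp5 and Igfbp6.

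The ligands were the least abundant members. Igf1 (ENSMUSG00000020053, chr10:87693642-87772904, plus strand) held 3.38, 3.60, 2.70 and 0.895 CPM in control KD A to D at 0 day and 2.88, 2.38, 1.58 and 0.799 CPM in YBX3 KD A to D. At 1 day it held 2.91 and 1.75 CPM in control KD C and D and 1.22, 5.88 and 0.844 CPM in YBX3 KD B to D. It was lower in YBX3 KD in 5 of the 6 pairs, and the exception was replicate C at 1 day. The groups overlapped, and the log2 fold change of -0.23 ± 0.48 did not pass (adjusted p = 0.859, edgeR).

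Igf2 (ENSMUSG00000048583, chr7:142204503-142220694, minus strand), which myoblasts are known to make as an autocrine differentiation factor, held 3.24, 5.69, 2.96 and 0.123 CPM in control KD A to D at 0 day and 5.49, 4.28, 3.04 and 0.822 CPM in YBX3 KD A to D. At 1 day it held 2.81 and 0.627 CPM in control KD C and D and 2.93, 14.04 and 0.512 CPM in YBX3 KD B to D. The lowest of these was 4 counts and the highest 523. The log2 fold change was 0.73 ± 0.83 (95% interval -1.06 to 2.52, adjusted p = 0.719, edgeR), and it was 0.12 without the library YBX3 KD 1 day C. At this depth and spread no direction could be given for Igf2 after YBX3 KD.

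That library stood apart in both ligands. YBX3 KD 1 day C had the highest Igf1 and Igf2 of the 13 libraries. It also had the highest level of the muscle differentiation genes Myog (3.46 CPM), Ckm (2.52 CPM), Acta1 (34.2 CPM) and Mymk (3.70 CPM). Mymk was nearly as high in YBX3 KD 0 day B (3.34 CPM). Of the same list, Mymx, Myh3, Tnnt1 and Tnnt3 were highest in this library too, but Mef2c, Actc1 and Cdkn1a were highest in others. Its Cdkn1a (260.9 CPM) was the lowest of the YBX3 KD libraries. Myog, the transcription factor that marks myoblasts entering differentiation, was at 0.888 CPM or less in the other 12 libraries. H19, the noncoding RNA that neighbours Igf2 and shares its imprinting control, was also highest in YBX3 KD 1 day C (2080 CPM). It was lowest in control KD 0 day D (617.2 CPM), the library with the lowest Igf2. Whether these genes and the ligands share a source in that library was not tested.

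Among the binding proteins, Igfbp7 (ENSMUSG00000036256, chr5:77493130-77555931, minus strand), a secreted protein that binds IGFs weakly, had the smallest p. It held 89.23, 106.2, 111.5 and 107.5 CPM in control KD A to D at 0 day and 119.6, 113.8, 113.8 and 119.5 CPM in YBX3 KD A to D. All 4 YBX3 KD libraries lay above all 4 control KD libraries at 0 day, as they did for 4.83% of all genes. At 1 day it held 98.96 and 119 CPM in control KD C and D and 137.2, 129.9 and 117.3 CPM in YBX3 KD B to D, and these overlapped. It was higher in 5 of 6 pairs. The log2 fold change over both days was 0.19 ± 0.07 (95% interval 0.05 to 0.34). Its unadjusted p was 0.0140 and its adjusted p 0.171 in edgeR's test. Igfbp7 passed 0.05 in 1 of 24 settings (limma-voom with quality weights, adjusted p = 0.0106), where 3088 of 16848 genes passed. The gene overlaps Polr2b on the opposite strand, which had 3282 to 9702 counts in a library.

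Igfbp5 (ENSMUSG00000026185, chr1:72897091-72914043, minus strand), a binding protein known to rise when myoblasts differentiate, differed in opposite directions on the 2 days. At 0 day it held 691, 851.3, 627.8 and 1217 CPM in control KD A to D and 582.7, 424.8, 288.2 and 672.7 CPM in YBX3 KD A to D. It was lower in YBX3 KD in all 4 pairs of that day. At 1 day it held 549.8 and 700.1 CPM in control KD C and D and 224, 864.1 and 1349 CPM in YBX3 KD B to D, and it was higher in both pairs. At 0 day the log2 fold change was -0.78 ± 0.44 (adjusted p = 0.576, edgeR). For 1 day it was 0.38 ± 0.58 (adjusted p = 0.878, edgeR), and the difference between them was 1.16 ± 0.73 (unadjusted p = 0.139, adjusted p = 1, edgeR). The opposite signs were therefore not shown to differ. The single YBX3 KD library without a partner at 1 day, replicate B, had the lowest Igfbp5 of all 13 libraries.

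Igfbp4 (ENSMUSG00000017493, chr11:98932064-98945218, plus strand), the binding protein that PAPPA cleaves, showed the same order of signs. At 0 day it held 89.73, 102.8, 93.94 and 269.7 CPM in control KD A to D and 84.98, 81.98, 71.32 and 114.9 CPM in YBX3 KD A to D. At 1 day it held 99 and 172.9 CPM in control KD C and D and 111.2, 126.3 and 188 CPM in YBX3 KD B to D. The fitted values were -0.65 ± 0.36 for 0 day and 0.06 ± 0.46 for 1 day on the log2 scale, with a difference of 0.72 ± 0.58 (adjusted p = 1, edgeR). Over both days it was -0.39 ± 0.29 (adjusted p = 0.569, edgeR), and it was -0.04 without control KD 0 day D.

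Igfbp6 (ENSMUSG00000023046, chr15:102052697-102057953, plus strand), which prefers IGF-II, followed Igfbp4 closely from library to library. At 0 day it held 275.7, 319.5, 310.2 and 879.5 CPM in control KD A to D and 288.3, 288.2, 254 and 367.4 CPM in YBX3 KD A to D. At 1 day it held 339.1 and 407.8 CPM in control KD C and D and 315.1, 384.2 and 841.1 CPM in YBX3 KD B to D. The log2 fold change over both days was -0.20 ± 0.34 (adjusted p = 0.817, edgeR), and it turned to 0.18 without control KD 0 day D. Pearson's r of log2 CPM between Igfbp4 and Igfbp6 over the 13 libraries was 0.931, a description across libraries that share replicate letters.

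Igfbp2 (ENSMUSG00000039323, chr1:72863606-72891634, plus strand) lies next to Igfbp5 in the genome. It held 44.21, 49.72, 56.91 and 79.09 CPM in control KD A to D at 0 day and 52.44, 62.84, 51.97 and 178.2 CPM in YBX3 KD A to D. At 1 day it held 48.05 and 142.8 CPM in control KD C and D and 45.5, 35.86 and 93.25 CPM in YBX3 KD B to D. The 4 values above 75 CPM are the 4 replicate D libraries. The log2 fold change was 0.09 ± 0.40 (95% interval -0.79 to 0.96, adjusted p = 0.94, edgeR), and it turned to -0.32 without YBX3 KD 0 day D.

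Igfbp3 (ENSMUSG00000020427, chr11:7156086-7164179, minus strand), the main IGF carrier in serum, held 61.84, 69.27, 62.94 and 49.31 CPM in control KD A to D at 0 day and 79.26, 74.64, 62.08 and 91.74 CPM in YBX3 KD A to D. At 1 day it held 102.5 and 63.13 CPM in control KD C and D and 79.54, 111.6 and 58.35 CPM in YBX3 KD B to D. The groups overlapped at both days, and the log2 fold change was 0.21 ± 0.17 (adjusted p = 0.586, edgeR). Its highest value in each siRNA group was in replicate C at 1 day.

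No member passed the test of 1 day against 0 day. Nor did any of 9 tested genes of early muscle differentiation, Myog among them. In control KD 1 of these was higher and 8 were lower at 1 day (median log2 fold change -0.648). In YBX3 KD 7 were higher and 2 lower (median 0.142). Over both siRNAs no member and 0% of all genes passed an adjusted p of 0.05 in edgeR's test, and at an unadjusted p under 0.05 it was 0 of 10 members and 477 genes. The same held within control KD, where 0% of all genes passed (242 at an unadjusted p under 0.05), and within YBX3 KD, where 0% passed (721 at an unadjusted p under 0.05), with no member under 0.05 in either. With DESeq2 the genes past 0.05 numbered 2, 6 and 4 in these 3 comparisons, and with limma-voom 33, 0 and 11, none of them a member. The largest fitted steps among the members were those of Igfbp4 (0.38 ± 0.30) and Igfbp6, whose pairwise log2 steps ran from -1.11 in control KD D to 1.19 in YBX3 KD D. Igfbp3 had a step of 0.26 ± 0.17 and was higher at 1 day in 4 of the 5 pairs of a letter and an siRNA. Igf2r had a step of -0.08 ± 0.11, made up of -0.25 ± 0.16 in control KD and 0.05 ± 0.14 in YBX3 KD. For Igf1 and Igf2 the fitted steps of 0.19 and 0.15 turned to -0.52 and -0.89 without YBX3 KD 1 day C. Igfbp5 had a step of -0.44 ± 0.55 in control KD and 0.72 ± 0.47 in YBX3 KD. Each of these intervals spans 0.

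The members were also compared between replicate letters. In a fit with siRNA, day and letter, the letter term passed an adjusted p of 0.05 (edgeR's quasi-likelihood test) for 4 of 10 members, beside 30.8% of all genes. They were Igf2 (adjusted p = 0.0155), Igfbp2 (0.00746), Igfbp4 (0.0232) and Igfbp6 (0.0391), while Igf1 was at 0.0517. Replicate D was the lowest library in all 4 groups for 2 members, Igf1 and Igf2, beside 21.3% of all genes, and the highest in all 4 groups for 4 members, Igfbp2, Igfbp4, Igfbp5 and Igfbp6, beside 21.9% of all genes. Averaged over the 4 groups, replicate D differed from the other replicates by -1.39 for Igf1, -3.11 for Igf2, 1.28 for Igfbp2, 0.88 for Igfbp4, 0.86 for Igfbp5 and 0.87 for Igfbp6 on the log2 scale. For Igf2r this was -0.01 and for Igfbp7 0.05. What the letters stand for is not given in the labels.

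**Figure D3:**
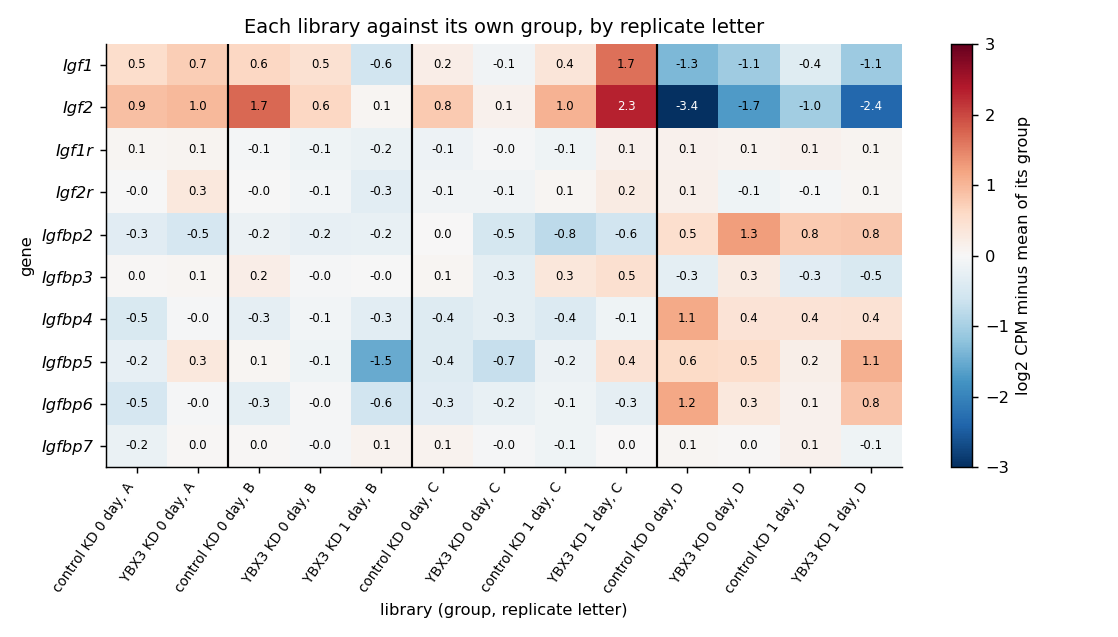
Log2 CPM of each member minus the mean of its own group, with the 13 libraries ordered by replicate letter (groups of 2 libraries deviate equally in both directions). In the 4 replicate D columns the ligands are low and Igfbp2, Igfbp4, Igfbp5 and Igfbp6 are high, and YBX3 KD 1 day C has high ligands.

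Levels of a pair of cell cycle genes are given beside these, untested. Mki67, a proliferation marker, was at 250.4 CPM in control KD 0 day D against 473.3 to 581.9 CPM in replicates A to C, at 276.5 CPM in YBX3 KD 0 day D against 356.9 to 455.7 CPM, at 425 CPM in control KD 1 day D against 542.2 CPM in C, and at 100.9 CPM in YBX3 KD 1 day D against 344.2 and 471.1 CPM in B and C. Cdkn1a, the cell cycle inhibitor p21, was at 273.4 CPM in control KD 0 day D against 116.4 to 128.7 CPM in A to C, and at 138.7 CPM in control KD 1 day D against 118.5 CPM in C. In YBX3 KD it was at 276.7 CPM in 0 day D, below the 288.1 to 301 CPM of A to C, and at 364.3 CPM in 1 day D against 310.7 and 260.9 CPM in B and C. The part of these differences in the levels of the IGF members in replicate D was not tested.

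Compared per kb of the canonical transcript, the binding proteins stood above the receptors and the receptors above the ligands. In control KD at 0 day (n = 4) the mean level was 366.1 CPM per kb for Igfbp6, 141 for Igfbp5, 43.55 for Igfbp2, 36.23 for Igfbp4, 22.51 for Igfbp3, 19.4 for Igfbp7, 16.33 for Igf2r, 4.95 for Igf1r, 0.81 for Igf2 and 0.373 for Igf1. The libraries of Igfbp6, Igfbp5 and Igfbp2 did not overlap, nor did those of Igf2r, Igf1r and Igf2. Igfbp2, Igfbp4, Igfbp3, Igfbp7 and Igf2r each overlapped the next in the order, as did Igf2 and Igf1. In YBX3 KD at 0 day Igf2r was at 9.72 CPM per kb and still above Igf1r (5.23) in every library. With the union of exons as length, Igfbp2 and Igfbp4 changed places, as did Igfbp3 and Igfbp7.

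**Figure D4:**
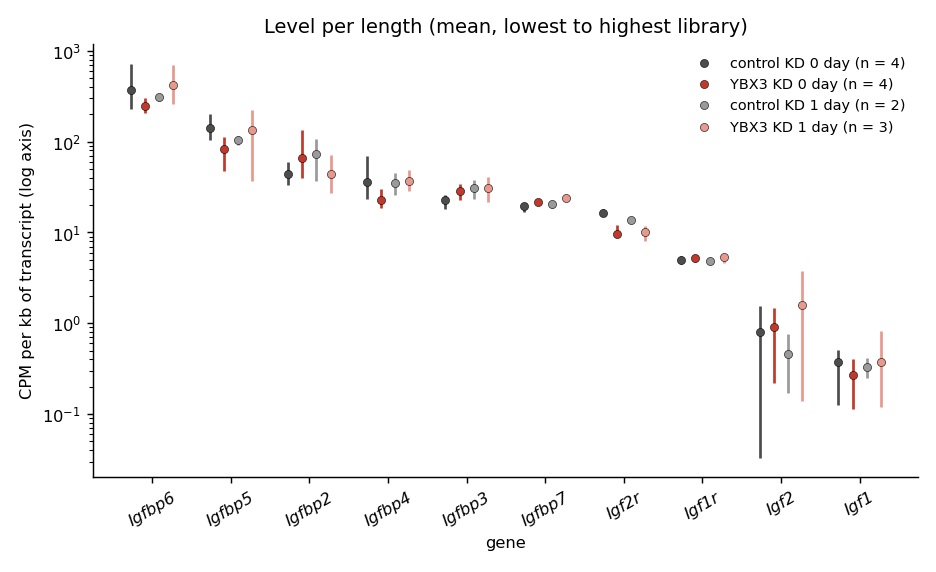
Level of each member in CPM per kb of its canonical transcript (log axis), with a point at the group mean and a line from the lowest to the highest library of each of the 4 groups. The order runs from Igfbp6 to Igf1, and the 2 YBX3 KD groups of Igf2r lie below its 2 control KD groups.

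Further genes of the axis were taken as lists. Among 15 extracellular partners and proteases, Igfbp1, Igfbpl1, Stc2, Ins1, Ins2 and Insrr had no counts in any library, so insulin itself was not detected, and 7 genes were tested. None of the 7 passed 0.05 in YBX3 KD over both days. The smallest p-values were those of the proteases Pappa2 (log2 fold change 0.51 ± 0.16, adjusted p = 0.13, edgeR) and Pappa (0.79 ± 0.31, adjusted p = 0.218, edgeR). Pappa rose by 0.77 ± 0.21 once letters entered the fit as a replicate block (adjusted p = 0.0444, edgeR). It was the 1 of 7 that passed there, beside 9.78% of all genes. A further list of 8 genes held genes of the Igf2 and Igf2r loci, genes of proteins that bind Igf2 mRNA, and Hmga2. Of these 7 were tested and none passed, with Igf2bp2 at 0.19 ± 0.09 (adjusted p = 0.365, edgeR).

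Of 43 tested genes of receptor signalling, 1 rose and none fell in YBX3 KD, a share like the 2.34% of all genes, with a median log2 fold change of -0.013 against 0.001 over all genes. Pik3r3, a regulatory subunit of PI 3-kinase, stood at 35.99 ± 5.32 CPM in control KD (SD, n = 6) and at 50.08 ± 7.23 CPM in YBX3 KD (SD, n = 7). It rose by 0.48 ± 0.11 on the log2 scale (adjusted p = 0.0486, edgeR), and was higher in all 6 pairs. It passed 0.05 in 12 of 24 settings. Gsk3a, a kinase that AKT inhibits, had -0.19 ± 0.06 (adjusted p = 0.134, edgeR). With the replicate letter as a block 5 of the 43 passed, against 9.78% of all genes. Besides Pik3r3 (adjusted p = 0.00182) these were Irs1, the substrate that IGF1R phosphorylates (0.50 ± 0.07, adjusted p = 0.00494), Grb14, an adaptor that inhibits the insulin receptor (0.95 ± 0.08, adjusted p = 0.000447), the kinase Pdpk1 (0.21 ± 0.06, adjusted p = 0.0479), and Gsk3a, which fell (-0.20 ± 0.05, adjusted p = 0.0296), all in edgeR's test. Without the replicate D libraries 5 rose and 1 fell, near the 12.9% of all genes that passed there. Irs1, Grb14 and Pdpk1 were named after their values were seen.

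Of 11 tested targets of the FOXO factors, which AKT holds out of the nucleus, none passed 0.05. Cited2 had 0.31 ± 0.11 (adjusted p = 0.191, edgeR; 0.29, adjusted p = 0.0462 with the replicate block) and Txnip 0.59 ± 0.29 (adjusted p = 0.353, edgeR). Without the replicate D libraries 1 of the 11 passed, Fbxo32, a muscle ubiquitin ligase (0.54 ± 0.11, adjusted p = 0.0113, edgeR), beside 12.9% of all genes. The partners of Igf2r in lysosomal sorting did not pass either. None of 8 genes of the mannose 6-phosphate pathway passed 0.05, with the sorting receptor Sort1 at -0.42 ± 0.13 (adjusted p = 0.113, edgeR), the adaptor Gga3 at 0.18 ± 0.07 (adjusted p = 0.206, edgeR) and the smaller receptor M6pr at -0.03 ± 0.09. Of 24 lysosomal hydrolases none passed. Over both days 19 were higher and 5 lower (median 0.110), but at 0 day 9 were higher and 15 lower (median -0.044) and at 1 day 22 were higher and 2 lower (median 0.336). Over both days Ids was at 0.11 ± 0.06 (adjusted p = 0.371, edgeR) and Gusb was at 0.13 ± 0.07 (adjusted p = 0.399, edgeR). Without the replicate D libraries Sort1 fell (-0.56, adjusted p = 0.013, edgeR), as 1 of these 8 genes, and 3 of the 24 hydrolases rose, both near the 12.9% of all genes that passed there.

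The CCN family are secreted proteins whose first domain resembles that of the IGF binding proteins. Of its 5 tested genes 1 rose past 0.05, beside 2.34% of all genes that passed. Ccn4 rose from 313.8 ± 25.6 CPM to 391.2 ± 51.72 CPM (log2 fold change 0.33 ± 0.07, adjusted p = 0.0225, edgeR) and passed 0.05 in 16 of 24 settings. Ccn3 had 0.75 ± 0.36 (adjusted p = 0.335, edgeR). With the replicate block 2 of 5 passed, beside 9.78% of all genes. They were Ccn4 (adjusted p = 0.0138, edgeR) and Ccn1 (0.41 ± 0.08, adjusted p = 0.0133, edgeR), the latter named after its value was seen. In the step from 0 day to 1 day no gene of any of these lists passed 0.05, and the smallest unadjusted p was that of Ccn4 (-0.23 ± 0.07, unadjusted p = 0.00513, adjusted p = 1, edgeR).

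Cell cycle and differentiation genes are given beside Igf2r. None of 13 proliferation genes passed 0.05 over all libraries, and all 13 had a lower mean in YBX3 KD, with a median log2 fold change of -0.417, with Ccnb2 at -0.52 ± 0.18 (adjusted p = 0.165, edgeR) and Plk1 at -0.56 ± 0.31 (adjusted p = 0.428, edgeR). With the replicate block 1 of the 13 passed, Ccnb2, which fell (-0.58, adjusted p = 0.0349, edgeR), beside 9.78% of all genes. Without the replicate D libraries 12 of the 13 fell, beside 12.9% of all genes. Of 9 tested differentiation genes 1 rose past 0.05, beside 2.34% of all genes that passed. It was Cdkn1a, which rose from 149.9 ± 61.07 CPM to 298.8 ± 33.03 CPM (log2 fold change 1.01 ± 0.20, adjusted p = 0.0199, edgeR). The summed level of these 9 tested genes was 137.4 to 284.1 CPM in control KD and 302.6 to 385.2 CPM in YBX3 KD, most of it Cdkn1a. Of 6 tested myoblast markers 1 rose, Chrna1 (0.37 ± 0.09, adjusted p = 0.0449, edgeR), beside the same 2.34%. With the replicate block 2 did, the other being Myod1, beside 9.78% of all genes. The endothelial gene Tek also passed (1.78 ± 0.40, adjusted p = 0.0375, edgeR) at no more than 22 counts in a library, and no tested gene of the adipocyte (2), osteoblast (3) or macrophage (2) lists did. The part of proliferation and differentiation in the level of Igf2r was not tested.

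The gene whose log2 CPM followed each member most closely over the 13 libraries was found among all genes tested. It was Cpne3 for Igf2r (Pearson's r = 0.925), Ly96 for Igf1r (0.950), Ifi211 for Igf1 (0.957), Myh1 for Igf2 (0.973), Vps37c for Igfbp2 (0.950), Ddc for Igfbp3 (0.873), Gypc for Igfbp4 (0.971), Hopx for Igfbp5 (0.949), Hs2st1 for Igfbp6 (0.990) and Sema4a for Igfbp7 (0.83). These are the highest of 16848 values each, over libraries that share letters and groups, and are given as a description.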

How the data were processed

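RNA from C2C12 cells was sequenced after siRNA transfection. The authors deposited 1 table of estimated counts per gene, made with Salmon on GRCm39 and the Gencode M30 annotation. Its values are whole numbers and not normalized. The step that summed estimates by gene, and the Salmon version, are not given in the sources used here. Symbols, positions and transcript lengths came from GENCODE vM39, joined by Ensembl identifier.

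edgeR 4.0.16 was run in R 4.3.3 (filterByExpr on the 4 groups, TMM, estimateDisp, glmQLFit, glmQLFTest), and p-values were adjusted over all 16848 genes tested by Benjamini-Hochberg. YBX3 KD was compared with control KD with the day as a term, and contrasts within a day or siRNA came from a fit with a coefficient per group. The study's methods state DESeq2 with weighted hypothesis testing, and its thresholds (fold change above 1.3, adjusted p under 0.001) were kept as the stricter rule. DESeq2 1.42.0, limma 3.58.1, other filters and scalings, and fits without each library were alternatives. Correlations and group values used log2 CPM with a prior count of 2 and CPM. Sequences and figures used Python 3.11.15 and matplotlib. The procedure was tested on simulated counts.

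Libraries carry a replicate letter and a title number, which disagree at 1 day. After group means were removed, all 16 pairs with the same letter correlated above 0.1 (0.117 to 0.730, median 0.338), against 8 of 16 with the same title number. Pairs of libraries were therefore formed by letter. The main fits carried no letter term and were not paired. The letter entered only the fits named as having a replicate block and the test of the letter term. No 2 libraries of a group were duplicates (chi-square per degree of freedom 19.01 or more).

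The genes named were all members, Ybx3, in each pathway list the 2 genes with the smallest p over both days and in the step between days, and list genes past 0.05, with the gene most like each member. The members and lists were chosen with earlier results of these data known.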

Additional observations from a re-analysis of the deposited data

Results flagged for a closer look

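In 4 of the 20 groups of 4 libraries examined (10 members at 0 day, each siRNA), 1 library lay far from the other 3. The threshold was set to flag about 1 in 20 independent groups, but these groups share libraries and are not independent. Igfbp4 and Igfbp6 had an r of 0.931. The share flagged over all genes is not given here, so an excess among the members is not shown. Replicate D was highest in all 4 groups for 21.9% of all genes and lowest for 21.3%. Control KD 0 day D was far above the others for Igfbp4 (270 CPM) and Igfbp6 (880 CPM), and YBX3 KD 0 day D for Igfbp2 (178 CPM). YBX3 KD 0 day A was above the others for Igf2r (107 CPM), which places the outlying library on the side of the control KD libraries.

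The sign of the difference between YBX3 KD and control KD was opposite in every pair of 0 day and every pair of 1 day for Igfbp5 and Igfbp4. The differences of the effects, 1.16 for Igfbp5 and 0.72 for Igfbp4 on the log2 scale, were tested and did not pass (adjusted p = 1 for each, edgeR's quasi-likelihood test).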

How the results depend on the processing

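Igf2r was lower in YBX3 KD under every setting computed in which YBX3 KD was set against control KD, over both days and within each day. No member met the stricter rule in the reported analysis. The count became 1 (Igf2r) over both days and at 0 day with DESeq2 and with an adjusted p under 0.05 alone, and also with DESeq2 and the replicate block, with an adjusted p under 0.05 and the replicate block, and with DESeq2 at an adjusted p under 0.05, the last 3 chosen after seeing the data. The cause was not tested. Over all genes, the stricter rule called 19 over both days, against 188 with DESeq2, 185 with limma-voom, 101 without the replicate D libraries, 9 with title numbers as the block and 10 to 21 with 1 library left out. An adjusted p under 0.05 was met by 394 genes, against 1179 with DESeq2, 3088 with limma-voom, 1647 with the replicate block (letter), 2167 without replicate D, 180 with no filter, where 30314 genes were tested, and 173 to 850 with 1 library left out, the 850 without control KD 0 day D. At 0 day these were 5 and 72, against 106 and 506 with DESeq2, 43 and 1782 with limma-voom, 8 and 399 with the replicate block (letter), 9 and 974 without replicate D, and 0 and 43 with title numbers.

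Signs turned only for values that had not passed. With title numbers as the block the step between days was -0.34 for Igf1 and -0.71 for Igf2, and YBX3 KD against control KD was -0.02 for Igfbp2. Without replicate D the step in YBX3 KD was -0.01 for Igf2r and the 1 day difference -0.00 for Igfbp5, and with limma-voom the 1 day difference of Igfbp4 was -0.05. With 1 library left out, the step ranged from -0.52 to 0.37 for Igf1, from -0.89 to 0.52 for Igf2, and from -0.08 to 0.19 for Igf2r in YBX3 KD. The 1 day difference ranged from -0.29 to 0.52 for Igfbp4 and from -0.20 to 0.82 for Igfbp5, the interaction from -0.06 to 0.20 for Igfbp7, and the difference over both days from -0.32 to 0.50 for Igfbp2 and from -0.42 to 0.18 for Igfbp6. Igfbp4 passed 0.05 at 0 day in 1 of 24 settings, DESeq2 with the replicate block (adjusted p = 0.0324). In that setting 1332 of 16848 genes passed at 0 day, against 72 in the main fit. With edgeR, pairing by letter (the replicate block) changed no call of a member at an adjusted p of 0.05. Where control KD at 1 day was left with 1 library, that library was assumed to vary like the other groups. At 1 day, with 3 against 2 libraries, few genes passed. Igf1 and Igf2 rest on as few as 29 and 4 counts, both in control KD 0 day D.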
